A study of Mus musculus with 2 samples.

Results

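Necroptosis and ferroptosis are forms of regulated cell death in which the cell membrane fails, and 10 of their genes were read in mouse kidney: Zbp1, Ripk1, Ripk3 and Mlkl for necroptosis, and Acsl4, Lpcat3, Slc7a11, Gpx4, Aifm2 and Chac1 for ferroptosis. The genes were chosen by name, with earlier results of these data known, and all 10 were found among the 20002 genes of the table. The study asked what the loss of Regnase-2, an RNase that degrades mRNA, does in renal proximal tubules. Poly(A) RNA of kidney was sequenced from control mice (1 library) and from mice labelled Reg-2 conditional knockout, or CKO (1 library). With 1 library per group there was no replicate check, no test between the groups was made, and differences between single mice or between library preparations cannot be told apart from the difference between the groups.

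The mice were C57BL/6J and were injected at the tail vein at 11 weeks of age with the AAV9 vector. In the CKO group the vector carried an shRNA against Regnase-2, so the label names a knockout where the methods describe a knockdown by vector. The control group received an empty vector according to the description of the vector work and a control shRNA according to that of the RNA-seq. The age at analysis is given as 14 weeks for the RNA-seq, while the methods of the vector work name 16 weeks for harvest. AAV9 was described as preferring proximal tubule cells, but the RNA came from left kidney tissue and so from every cell type in it. Sex, and the number of mice behind each library, are not stated for these libraries.

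In necroptosis, signals from death receptors, Toll-like receptors or the nucleic acid sensor ZBP1 gather the kinases RIPK1 and RIPK3 through a shared interaction motif, and RIPK3 then phosphorylates MLKL, which permeabilizes the plasma membrane. In ferroptosis, membrane phospholipids that hold polyunsaturated fatty acids are oxidized in a reaction that depends on iron, and the selenoenzyme GPX4 opposes this by reducing lipid peroxides with glutathione. Both forms of death are known from models of acute kidney injury, where proximal tubule cells are a main site of damage.

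The deposited values were whole numbers, the lowest being 35 in the control column and 51 in the CKO column. A floor of 34 and 50, the lowest value less 1, was subtracted, and the remainder was treated as reads. The control library then totalled 38851231 reads and the CKO library 43588721. For ratios, a factor of 0.667 was applied to the CKO library, namely the median gene ratio of control to CKO. Each fold below is the ratio of scaled CKO reads to control reads with its 95% Clopper-Pearson interval, which covers counting error only. A gene was counted as higher or lower when its log2 ratio, computed with a pseudocount of 1, was at least 1 in size, which is 2-fold. Members and gene lists were chosen with earlier results of these data known. Their counts beside the share of all genes are therefore description and give no support.

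Zc3h12b, the gene of Regnase-2 (chrX:95711583-95932656 in GRCm38), showed 47 control and 59 CKO reads, which was 0.837-fold (0.561 to 1.26). Its interval spanned equality, and its log2 ratio turned above 0 with equal library totals (0.16) and with the unscaled values as deposited (0.43). The targeted gene therefore does not check the labels, and every direction given below is that of the library labelled CKO.

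In the library labelled CKO, 5 of the 10 members exceeded the control by 2-fold or more (Zbp1, Mlkl, Ripk3, Chac1 and Acsl4) and 0 fell short of it by as much. A minimum of 10 scaled reads in 1 or both libraries was met by 17469 genes, of which 2334 (13.4%) were higher by that rule and 934 (5.35%) lower. All 10 members met it. Their median log2 ratio was 0.83, against 0.02 over the 17469 genes, and 8 of the 10 were above 0. The members above the threshold were 3 of the 4 necroptosis genes, 1 of the 2 lipid supply genes, 0 of the 3 defence genes and the single glutathione-degrading gene. With the library totals made equal in place of the median gene ratio, 3870 genes (21.9%) were higher and 437 (2.47%) lower, so that 89.9% of the genes past 2-fold were higher ones, compared with 71.4% here, and 6 members passed, Slc7a11 being the addition. Equal library totals moved the median log2 ratio of all genes to 0.44 and that of the members to 1.24. With the scaled values as deposited the members' median was 0.44, against 0.02 over all genes. The number of members was 4 with the median log2 ratio set to 0, with a pseudocount of 10, with 1 more subtracted or with at least 50 reads, and 3 with the scaled values as deposited, where 1207 genes were higher.

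**Figure D1:**
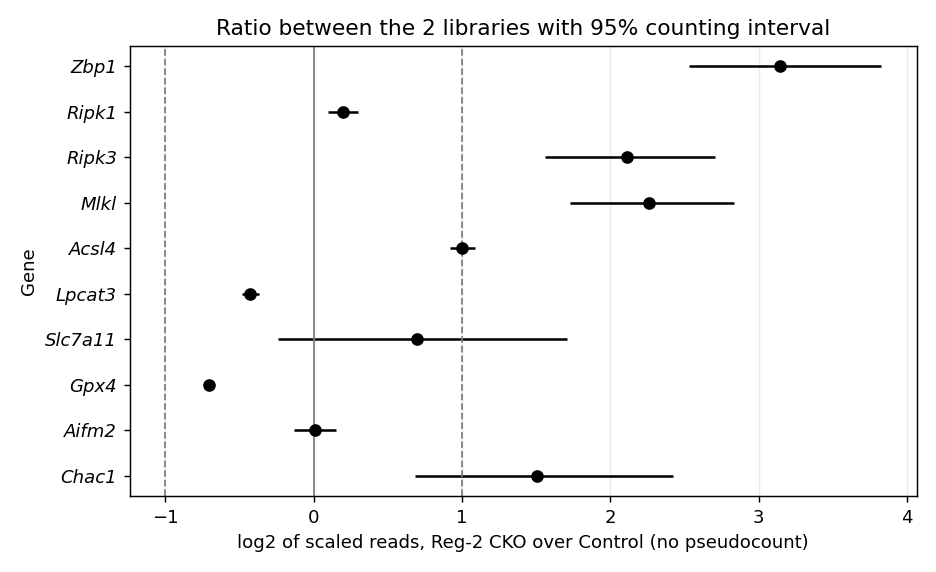
Ratio of scaled reads in the Reg-2 CKO library to those in the Control library for each of the 10 genes, on a log2 axis without a pseudocount (1 library per group). Points are ratios, horizontal bars are 95% Clopper-Pearson intervals for counting error only, the solid line marks equality and dashed lines mark 2-fold. Zbp1 lies farthest right at 8.84-fold, and Gpx4 and Lpcat3 lie left of equality, Lpcat3 moving to the right of it with the unscaled values as deposited.

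The plot of ratios with counting intervals sets Zbp1, Ripk3 and Mlkl above the other members. For these 3 the whole interval lay beyond 2-fold. The interval of Acsl4 straddled the 2-fold line, and that of Slc7a11 included both equality and 2-fold. Those of Gpx4 and Lpcat3 lay below equality under this scaling, and the direction of Lpcat3 turned with the unscaled values as deposited.

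Zbp1 encodes a sensor of left-handed double-stranded nucleic acids that is itself induced by interferon (chr2:173206612-173218959). The control library held 23 reads of it and the CKO library 305, or 203 after scaling, which was 8.84-fold higher (5.78 to 14.2). With the scaled values as deposited its log2 ratio was 2.07 in place of 3.09. Of the 10 members it had the highest ratio, and it ranked 149 of 17469 genes from the top. In whole kidney, more cells of a type and more RNA per cell cannot be told apart, nor can fewer cells and less RNA per cell.

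Ripk3 encodes the kinase that phosphorylates MLKL (chr14:55784995-55788857). The control library held 31 reads of it and the CKO library 201, 134 after scaling, which was 4.32-fold higher (2.95 to 6.53). Mlkl, the gene of the membrane-permeabilizing effector (chr8:111311255-111338479), had 33 and 237 reads, the latter 158 after scaling, and was 4.79-fold higher (3.32 to 7.12). The counting intervals of kinase and effector overlapped over most of their width. They ranked 681 and 564 of 17469 from the top. With the scaled values as deposited their log2 ratios were 1.38 and 1.53.

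Ripk1 encodes the kinase that joins death receptor signalling to both survival and death (chr13:34002225-34035170). The control library held 1300 reads of it and the CKO library 2237, 1491 after scaling, which was 1.15-fold (1.07 to 1.23). Its ratio thus lay at rank 6561 of 17469, far below the ranks of Ripk3 and Zbp1, its partners with the shared interaction motif.

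Levels were compared between genes as RPKM, the reads of a gene divided by its exon length in kilobases and by the library total. On this scale the control kidney held 4.01 of Ripk1, 0.369 of Mlkl, 0.348 of Ripk3 and 0.168 of Zbp1. The CKO kidney held 6.15, 2.36, 2.01 and 1.98 of the same genes. The level of Ripk1 was 11.5 times that of Ripk3 in the control and 3.06 times in the CKO kidney. Relative to Mlkl it was 10.9 and 2.61 times as high, and relative to Zbp1 23.9 and 3.10 times. The gap between Ripk1 and the 3 scarcer genes was therefore narrower in the CKO kidney. The 95% counting intervals of Ripk3 (0.237 to 0.494) and Mlkl (0.254 to 0.518) overlapped in the control, and those of Ripk3 (1.74 to 2.31) and Zbp1 (1.77 to 2.22) in the CKO library.

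**Figure D2:**
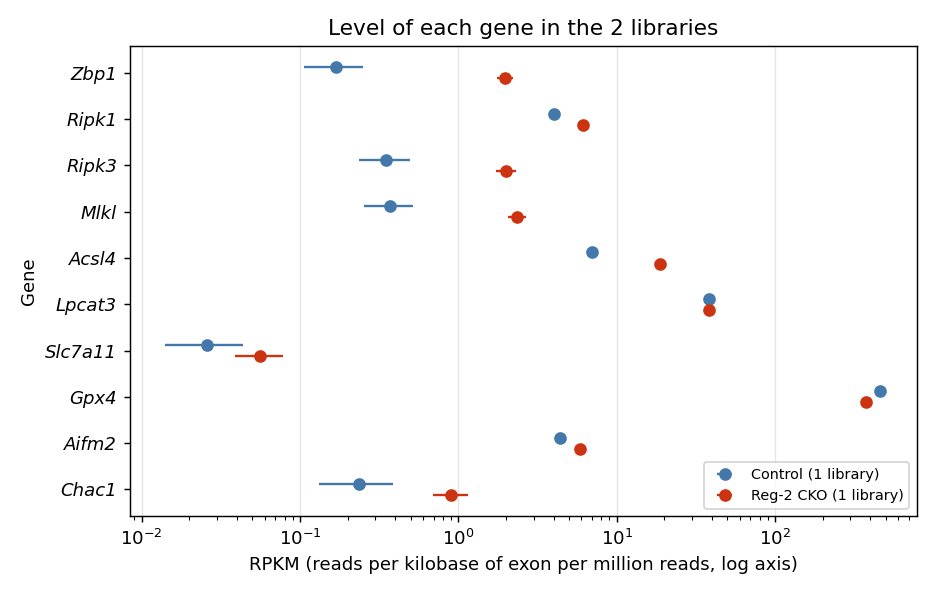
Level of each of the 10 genes in the Control (blue) and Reg-2 CKO (red) library, as RPKM (reads divided by exon length and library total) on a log axis, with 1 library per group. Bars are 95% Poisson intervals for counting error and are hidden by the points where they are narrow. Gpx4 was the most abundant at 461 and 377, and Slc7a11 the least at 0.0259 and 0.0560.

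Promoters were taken from the RefSeq table for GRCm38.p6, in windows from 250 bases before to 50 bases after a transcript start. It gave 13 windows for 9 of the 10 members and none for Zbp1, although coordinates of Zbp1 are given above. With the lists of interferon-inducible, stress and glutathione genes in view, 4 motifs were searched on both strands: the interferon-stimulated response element core (GAAANNGAAA, held by 3.44% of all 32851 windows), the gamma-activated site core (TTCNNNGAA, 8.30%), the C/EBP-ATF response element core (TGATGNAA, 3.97%) and the antioxidant response element core (TGACNNNGC, 12.4%). The windows of Ripk3, Mlkl, Acsl4, Lpcat3, Gpx4 and Aifm2 held none of the 4 motifs. Matches were found in 3 windows, of Ripk1, Slc7a11 and Chac1, which are printed with their genes. A match describes the letters and not a site in use, and its absence says only that the letters are not in the window.

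Among the necroptosis genes with a window, the only one to hold any of these motifs was Ripk1, the one whose ratio was below 2-fold. Another window of Ripk1, at chr13:34002113-34002412, held none of them, and Zbp1 had no window, so no contrast between these genes is drawn. The Ripk1 window at chr13:34002624-34002923 on the plus strand is shown, with the motifs in capitals. The gamma-activated site core begins 108 and again 11 bases before the start, and the interferon-stimulated response element core begins 5 bases before it and overlaps the nearer of these.
Ripk1: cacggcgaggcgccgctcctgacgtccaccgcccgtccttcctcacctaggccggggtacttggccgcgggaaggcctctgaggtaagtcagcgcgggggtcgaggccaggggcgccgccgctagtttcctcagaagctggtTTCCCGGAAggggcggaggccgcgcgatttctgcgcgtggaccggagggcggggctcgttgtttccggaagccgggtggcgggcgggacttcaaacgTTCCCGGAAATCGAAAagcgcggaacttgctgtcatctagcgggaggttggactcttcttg

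A list of 18 genes around RIPK1, from the death receptor to the caspase and ubiquitin enzymes that hold necroptosis back, had a median log2 ratio of 0.07, against 0.02 over all genes. Past 2-fold were 2 higher and 0 lower of the 18, near or below the background of 13.4% and 5.35% of all genes. Tnfaip3, which encodes the ubiquitin-editing inhibitor A20, showed 136 and 1189 reads, for a log2 ratio of 2.53. Birc3, which encodes the ubiquitin ligase cIAP2, showed 260 and 1427 reads, for a log2 ratio of 1.87. Casp8, the gene of the protease that cleaves RIPK1 and RIPK3, showed 1048 and 1644 reads, for a log2 ratio of 0.06. Of the other 16, the highest was Tnfrsf1a, which encodes the TNF receptor 1, at 0.85 with 1177 and 3178 reads.

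Of 14 interferon-inducible genes set beside Zbp1, 14 were at least 2-fold higher, where 13.4% of all genes were, and their median log2 ratio was 1.75. The list was chosen with earlier results of these data known, so this count gives no support. The 8 highest were Irf7 at 2.94, Ifit1 at 2.82, Gbp2 at 2.42, Usp18 at 2.27, Oas1a at 2.25, Isg15 at 2.14, Ifit3 at 1.94 and Irgm1 at 1.56. Irf7, an amplifier of the type I interferon response, went from 224 to 2595 reads. The part of interferon signalling in the value of Zbp1 was not tested.

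Most of the listed leukocyte markers were also higher in the CKO library. Of 12 macrophage and monocyte markers, 11 were at least 2-fold higher, where 13.4% of all genes were, with a median log2 ratio of 2.77, and their summed level was 79.7 RPKM in the control and 703 in the CKO kidney. Cd74 was the most abundant in both, at 40.0 and 327 RPKM, so this 1 gene made up a large part of each sum. The largest ratios were those of Lyz2 at 3.66, Ccr2 at 3.51, Fcgr1 at 3.48, Itgam at 3.05, C1qa at 2.99, C1qc at 2.87, C1qb at 2.67 and Cd74, while Csf1r was below 2-fold at 0.51. Ptprc, the pan-leukocyte gene, went from 209 to 1373 reads, a log2 ratio of 2.12. Of the macrophage markers none had 3 or fewer reads in either library.

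Lymphocyte and neutrophil markers were scarcer. Of 7 T and NK cell markers with enough reads, 6 were at least 2-fold higher, where 13.4% of all genes were, with a median of 1.72. The 8 genes in the table summed to 1.09 RPKM in the control and 4.58 in the CKO kidney. With the scaled values as deposited the median of the T and NK cell markers was 0.71. Those higher were Cd3g, Trbc2, Cd8a, Cd3e, Cd4 and Nkg7, Cd3g being the highest at 2.22 with 13 and 96 reads, and Trbc2 was the most abundant. Ncr1 went the other way at -0.46, with 15 and 16 reads. Cd3e, Cd8a, Trbc2 and Nkg7 had 8 or fewer control reads and met the minimum only through the CKO library, so they could only be higher, and this count gives no support. Of 3 neutrophil markers, Csf3r and S100a9 were at least 2-fold higher at 2.37 and 1.64, where 13.4% of all genes were. The summed level of the 3 was 1.06 and 4.57, led by S100a9. Their median was 1.64, or 0.71 with the scaled values as deposited. S100a8, at 0.77 with 7 control reads and 12.7 scaled CKO reads, met the minimum only through the CKO library, so it could only be higher. Of 2 B cell markers, Ighm was at least 2-fold higher at 1.68, against the same 13.4% of all genes. The B cell sum went from 1.92 to 7.09 with Ighm as the most abundant. Cd3d, Cd8b1, Ly6g, Cxcr2, Retnlg, Mpo, Elane, Cd79a, Ms4a1 and Pax5 were not analysed here. The part of leukocyte RNA in the values of Zbp1, Ripk3 and Mlkl was not tested.

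The ferroptosis genes were described by role, beginning with those that place polyunsaturated fatty acids into phospholipids. Acsl4, which encodes the acyl-CoA synthetase that activates arachidonic acid (chrX:142317993-142390802), showed 1473 control reads and 4427 CKO reads, 2951 after scaling, and was 2.0-fold higher (1.89 to 2.13). Its log2 ratio of 1.0 lay at the threshold, and it dropped below when the median log2 ratio of expressed genes was set to 0, with a pseudocount of 10, with 1 more subtracted from both columns, or with the scaled values as deposited. Lpcat3, which encodes the acyltransferase that then inserts such acyl chains (chr6:124663094-124704716), had 4861 and 5425 reads, the latter 3617 after scaling, and was 0.744-fold (0.716 to 0.774). The successive enzymes of this route thus had ratios on opposite sides of equality, except with the unscaled values as deposited, where Lpcat3 was at a log2 ratio of 0.16.

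Per length, Lpcat3 was more abundant than Acsl4 in both libraries, at 38.3 against 7.02 in the control and 38.1 against 18.8 in the CKO library. The level of Lpcat3 was 5.46 times that of Acsl4 in the control and 2.03 times in the CKO kidney. RPKM values divide by the library total and not by the median gene ratio, so Lpcat3 showed nearly the same level on that scale and a ratio below 1 on the other. Its direction was therefore not fixed by these data. The ratio between the genes of 1 library does not depend on the scaling, so the narrowing between Lpcat3 and Acsl4 does not either.

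The list of 16 other genes of lipid supply and peroxidation had a median log2 ratio of -0.03, or 0.39 with equal library totals, and 1 gene lay beyond 2-fold in each direction, where 13.4% of all genes were higher and 5.35% lower. Ptgs2, the gene of cyclooxygenase 2 and often read as a marker of ferroptosis as well as of inflammation, showed 11 and 175 reads, for a log2 ratio of 3.29. Agps, which encodes a peroxisomal enzyme of ether lipid synthesis, showed 14854 and 6709 reads, for a log2 ratio of -1.73.

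Slc7a11 encodes the light chain of the cystine importer xCT (chr3:50364936-50499087). The control library held 14 reads of it and the CKO library 34, 22.7 after scaling, which was 1.62-fold (0.846 to 3.27). A difference was not detectable at this depth under this scaling, whereas with equal library totals the log2 ratio was 1.06, past 2-fold. Slc3a2, the gene of its heavy chain and also a partner of other transporters, showed 5376 and 8220 reads, for a log2 ratio of 0.03. Per length, Slc7a11 was the least abundant member in both libraries, at 0.0259 (0.0142 to 0.0434) in the control and 0.0560 (0.0388 to 0.0783) in the CKO kidney.

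The promoter window of Slc7a11, at chr3:50443564-50443863 on the minus strand, lies at a transcript start inside the annotated span of the gene. It is shown because it held more copies of the C/EBP-ATF response element core than the window of any other member. In capitals are that core on the gene's strand 66 bases before the start, the same core on the opposite strand, beginning 47 bases before it, and a gamma-activated site core beginning 183 bases before it.
Slc7a11: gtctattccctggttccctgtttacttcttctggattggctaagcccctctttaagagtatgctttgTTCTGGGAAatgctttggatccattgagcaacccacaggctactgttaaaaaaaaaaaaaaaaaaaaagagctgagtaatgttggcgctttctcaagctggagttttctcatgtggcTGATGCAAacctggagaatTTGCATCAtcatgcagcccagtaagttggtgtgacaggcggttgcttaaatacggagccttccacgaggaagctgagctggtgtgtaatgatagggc

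Gpx4, the gene of the lipid peroxide reductase (chr10:80047166-80056439), showed 30880 control reads and 28320 CKO reads, 18880 after scaling, and was 0.611-fold (0.602 to 0.621). It was the lowest of the 10 ratios, at a log2 ratio of -0.71, and remained below 0 under each alternative run, at -0.12 where it was nearest 0. Its level per length was the highest of the members, 461 in the control and 377 in the CKO kidney. In the annotation 2 pseudogenes, Gpx4-ps1 and Gpx4-ps2, are named for it, and its reads are uncertain where the copies are nearly identical.

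Aifm2 encodes FSP1, an oxidoreductase that regenerates ubiquinol as a trap for lipid radicals independently of glutathione (chr10:61715263-61739260). The control library held 703 reads of it and the CKO library 1060, 707 after scaling, which was 1.01-fold (0.913 to 1.11). Its sign was not fixed, since the ratio lay on either side of 1 depending on the scaling. Per length, the level of Gpx4 was 105 times that of Aifm2 in the control and 63.9 times in the CKO kidney. The level of Gpx4 relative to the lipid-supplying Acsl4 was 65.7 in the control and 20.1 in the CKO kidney, a change that does not depend on how the libraries were scaled to each other.

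Of 13 genes of glutathione and cystine metabolism, 3 were at least 2-fold lower and 0 at least 2-fold higher, where 5.35% of all genes were lower and 13.4% higher. The median log2 ratio was -0.52, against 0.02 over all genes. With the unscaled values as deposited this median turned to 0.063. Ggt1, which encodes the gamma-glutamyl transferase of the tubular brush border, showed 49199 and 24001 reads, for a log2 ratio of -1.62. Cbs, of the pathway from methionine to cysteine, was at -1.51 with 12154 and 6419 reads, and Gss, which encodes glutathione synthetase, was at -1.10 with 17328 and 12139 reads. Gss was less than 2-fold lower on the RPKM scale, which equalizes library totals, at 75.4 and 47.1. The summed level of the 13 genes was 808 in the control and 561 in the CKO kidney.

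Of 10 proximal tubule markers, 4 were at least 2-fold lower and 0 at least 2-fold higher, where 5.35% of all genes were lower and 13.4% higher, with a median log2 ratio of -0.76, and Gpx4 was at -0.71. The 4 were Slc22a6 at -1.63, Slc27a2 at -1.23, Slc34a1 at -1.17 and Miox at -1.05. On the RPKM scale only Slc22a6 of these 4 was still 2-fold lower, at 325 and 141. Slc5a12 went the other way at 0.41, with 25259 and 50338 reads. The median was -0.35 with equal library totals and -0.18 with the unscaled values as deposited. The summed level of all 10 was 4083 in the control and 2845 in the CKO kidney, with Slc27a2 as the most abundant in both, so the labelled tissue held its markers. Of 12 markers of other nephron segments and vessels, 0 passed 2-fold in either direction. Aqp2 was the highest at 0.79, and on the RPKM scale it was more than 2-fold higher, at 86.4 and 199.8. The median of the 12 was -0.10 and became 0.32 with equal library totals. Their sum went from 1206 to 2094 with Umod as the most abundant. The part of proximal tubule RNA in the values of Gpx4 and of the glutathione genes was not tested.

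Of 11 genes listed under radical-trapping defence, not all of which encode such an activity, 1 was at least 2-fold higher and 0 lower, with a median of -0.30. The higher one was Mboat1, an acyltransferase gene of phospholipid remodelling rather than of radical trapping, with 93 and 481 reads, for a log2 ratio of 1.77. Of 15 genes of iron handling, 2 were higher and 1 was lower, with a median of -0.29, where 13.4% of all genes were higher and 5.35% lower, so these shares were near the background. The medians of both lists were above 0, at 0.12, with equal library totals. Cp, which encodes the ferroxidase ceruloplasmin, went from 2809 to 17933 reads at a log2 ratio of 2.09, and Trf, which encodes transferrin, from 377 to 1935 reads at 1.77. Tfrc, which encodes the transferrin receptor, was at -1.06 with 3424 and 2454 reads. On the RPKM scale Tfrc was less than 2-fold lower, at 14.25 and 9.10.

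Chac1 encodes a cytosolic enzyme that degrades glutathione and is a target of the stress factor ATF4 (chr2:119351242-119354326). The control library held 15 reads of it and the CKO library 64, 42.7 after scaling, which was 2.84-fold higher (1.60 to 5.38). The lower end of the interval was above equality but below 2-fold, and with the scaled values as deposited the log2 ratio was 0.65 in place of 1.45, below the threshold. It ranked 1392 of 17469 from the top. Per length, its level was 0.236 (0.132 to 0.389) in the control and 0.897 (0.691 to 1.15) in the CKO kidney.

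The promoter window of Chac1, at chr2:119350992-119351291 on the plus strand, is shown as that of the member above 2-fold that held one of the motifs. In capitals is the C/EBP-ATF response element core on the opposite strand, beginning 193 bases before the start.
Chac1: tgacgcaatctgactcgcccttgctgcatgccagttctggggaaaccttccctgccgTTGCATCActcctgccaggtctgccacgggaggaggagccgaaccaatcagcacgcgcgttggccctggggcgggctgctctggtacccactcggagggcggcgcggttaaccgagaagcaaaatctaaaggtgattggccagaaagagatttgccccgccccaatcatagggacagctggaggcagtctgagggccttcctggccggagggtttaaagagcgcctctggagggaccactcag

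Of 10 genes of the ATF4 stress response set beside Chac1, 2 were at least 2-fold higher and 0 lower, with a median log2 ratio of 0.41, where 13.4% of all genes were higher, so this count was near the background. Atf3, which encodes a transcription factor induced by many stresses, went from 53 to 946 reads at 3.55. Asns, which encodes asparagine synthetase, went from 51 to 347 reads at 2.16. Atf4 itself showed 2980 and 4433 reads, for a log2 ratio of -0.01. Chac1 at 1.45 therefore lay above the median of the list and below Atf3 and Asns, and 9 of the 10 genes were above 0.

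**Figure D3:**
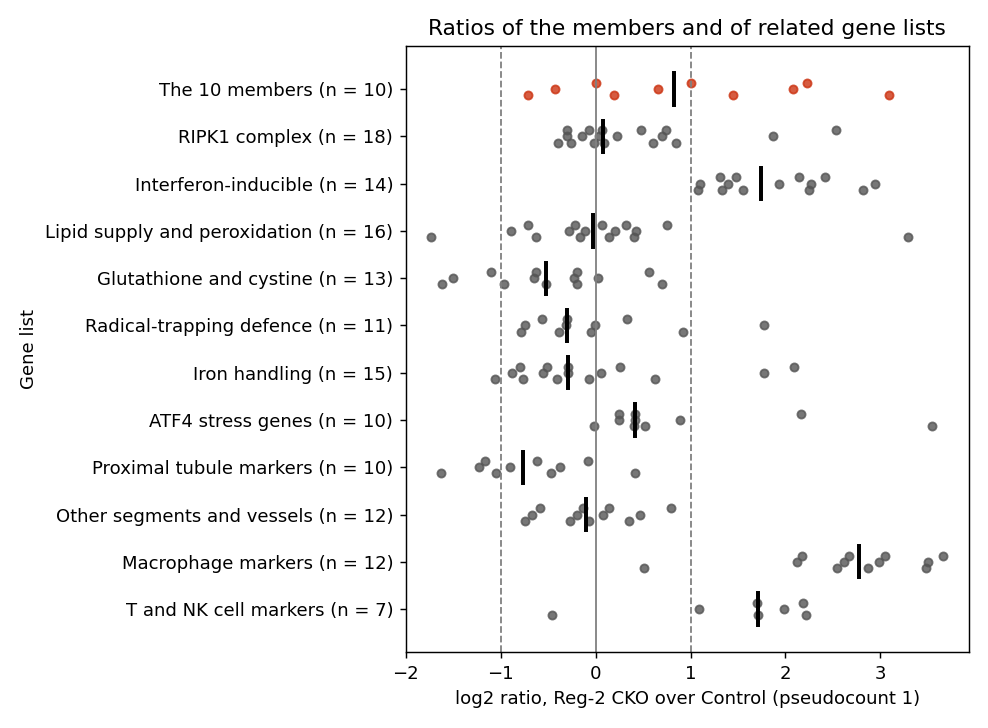
Log2 ratios, Reg-2 CKO over Control with a pseudocount of 1, of the 10 members (red) and of the genes of 11 related lists (grey), 1 library per group. Each point is a gene that met the minimum of 10 scaled reads, black bars are medians, the solid line is 0 and dashed lines mark 2-fold. Every interferon-inducible gene lies beyond 2-fold, and the proximal tubule and glutathione lists have the lowest medians, -0.76 and -0.52. The glutathione median turned to 0.063 with the unscaled values as deposited.

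The plot of gene lists shows how the members spread over the range that their surrounding genes covered. The members ran from -0.71 to 3.09. Each of Ripk3, Mlkl, Zbp1 and Gpx4 lay within the ranges of several lists, so none was matched to a single list. Zbp1 lay above the whole interferon-inducible list, whose highest gene was Irf7 at 2.94. It lay within the lipid peroxidation and ATF4 lists only through Ptgs2 at 3.29 and Atf3 at 3.55. Shared range is a description of these 2 libraries and was not tested.

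The order of levels per length was nearly the same in both libraries. From the highest, the control order was Gpx4, Lpcat3, Acsl4, Aifm2, Ripk1, Mlkl, Ripk3, Chac1, Zbp1 and Slc7a11. In the CKO library Ripk1 stood before Aifm2 and Zbp1 before Chac1. The counting intervals of Ripk1 (3.80 to 4.23) and Aifm2 (4.07 to 4.73) overlapped in the control, as did those of Chac1 and Zbp1 (0.106 to 0.252) and of Chac1 with Ripk3 and with Mlkl and of Ripk3 with Zbp1. In the CKO library those of Ripk1 (5.90 to 6.41) and Aifm2 (5.55 to 6.27) overlapped too, as did those of Mlkl (2.07 to 2.68) with Ripk3 and with Zbp1. The orders were the same with the length of the longest transcript in place of all annotated exons.

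**Figure D4:**
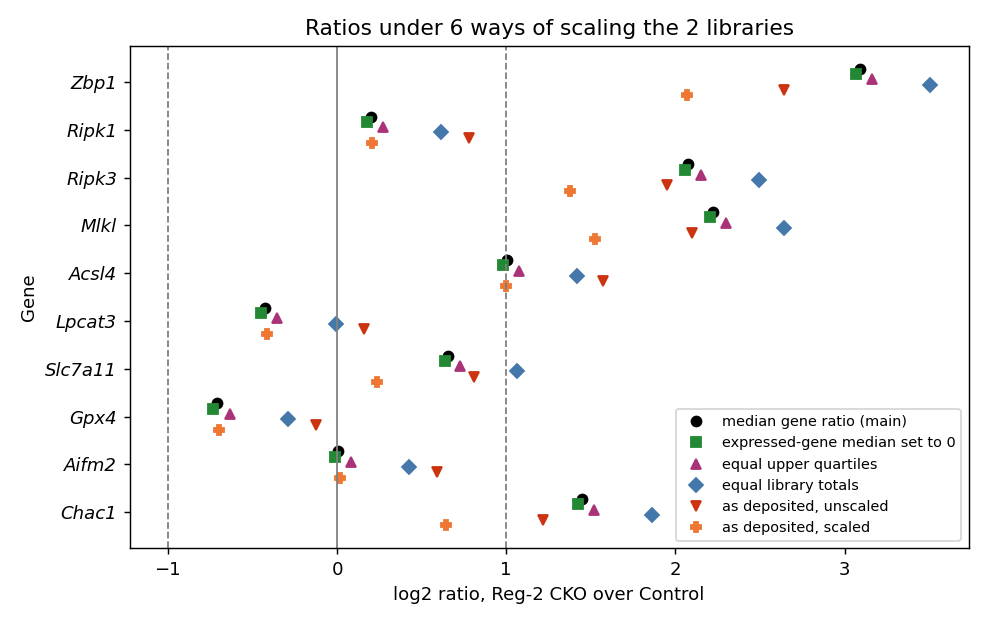
Log2 ratio, Reg-2 CKO over Control, of each of the 10 genes under 6 ways of scaling the 2 libraries, including the values as deposited with no floor subtracted (1 library per group). The solid line is 0 and dashed lines mark 2-fold. Zbp1, Mlkl and Ripk3 stay to the right of 2-fold under each, whereas Lpcat3 and Aifm2 change side of 0.

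The plot of scalings separates the members whose call did not move from those whose call did. Ripk3 ran from 1.38 to 2.49, Mlkl from 1.53 to 2.64 and Zbp1 from 2.07 to 3.51 over every alternative run. Chac1 ran from 0.65, with the scaled values as deposited, to 1.86. Slc7a11 passed 2-fold with equal library totals, at 1.06. The floors bear most on members with few reads, since 34 and 50 exceeded the control reads of Zbp1, Ripk3, Mlkl, Chac1 and Slc7a11.

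Some reads cannot be placed with certainty. The annotated span of Ripk1 overlaps that of Serpinb6a, Ripk3 that of Gm32092, Lpcat3 that of Emg1 and Aifm2 that of Macroh2a2. The library kit keeps the strand, but the strand setting of the read counting is not given in the sources used here, so reads in the shared stretches cannot be told apart.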

How the data were processed

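RNA-seq of kidney was read for 1 control and 1 Reg-2 CKO library. STAR 2.7.3a served the authors for alignment, HTSeq for read counting and DESeq2 for normalization, and the submitters' processing notes name mm10. The deposited values, which the authors call normalized counts, are whole numbers on no stated scale and were treated as a score, so no count test was run. That they hold reads plus a constant per column is an inference: each whole value from 1 to 100 occurs in both columns after the floor is subtracted. The depth was 38851231 and 43588721 reads, with medians of 284 and 513.5 reads per gene. A gene was kept if 1 or both libraries had 10 or more scaled reads, the pseudocount was 1 and the threshold 2-fold. Intervals of ratios are 95% Clopper-Pearson and those of levels exact Poisson, which treat the recovered values as read counts and cover counting error only. With 1 library per group no test was made.

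Coordinates are those of RefSeq for GRCm38.p6, matched by gene ID, and lengths are the union of exons in GENCODE M21. Members and lists were chosen with earlier results of these data known. The genes named were the 10 members, Zc3h12b, and of each list those past 2-fold, up to 8 by size, or otherwise the highest and lowest, except 1 that is not reported here. Casp8, Slc3a2, Atf4, Ptprc, Csf1r, Tnfrsf1a, Slc5a12 and the most abundant markers were named after their values were seen.

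Alternatives were a pseudocount of 0.1 or 10, a minimum of 50 reads or none, 3 other scalings, the values as deposited with and without scaling, thresholds of 1.5-fold and 4-fold, and, chosen after seeing the data, 1 more or 1 less subtracted from both columns. The steps were tested on simulated data. Python 3.11.15, numpy 2.4.6, pandas 2.3.3, scipy 1.17.1 and matplotlib 3.10.9 were used.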

Additional observations from a re-analysis of the deposited data

How the results depend on the processing

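No paired analysis was possible because there was 1 library per group. Of the values for single genes and list medians under the alternatives, 210 stayed within their range, 36 moved without a change of direction and 15 changed direction. For a single gene the range was its counting interval. For a median it ran from the median of the genes' lower limits to the median of their upper limits, which is not an interval of the median. Of the counts past the threshold and the median over the members, 51 were classed as the same and 14 as moved. The class of the same was wide. It held the members' median at 1.24 with equal library totals and at 0.44 with the scaled values as deposited, against 0.83. It also held 652 genes lower with a pseudocount of 10, against 934. With at least 50 reads, 617 genes were lower, since genes with fewer reads were left out. A threshold of 1.5-fold gave 1 member lower (Gpx4) and 3801 genes higher and 2423 lower, and one of 4-fold gave 3 members higher and 749 and 166 genes, as the thresholds themselves bring about. Equal library totals gave 3870 genes higher and 437 lower, the values as deposited 3624 and 132, and the same values scaled 1207 and 465, with 3 members higher. With equal totals, Zc3h12b changed direction to 0.16, and the list medians of lipid peroxidation to 0.39, radical-trapping defence to 0.12, iron handling to 0.12 and other segments and vessels to 0.32. With the unscaled values as deposited, Zc3h12b was at 0.43, Lpcat3 at 0.16, and those list medians at 0.56, 0.29, 0.29 and 0.48, with glutathione and cystine at 0.063. Equal upper quartiles put lipid peroxidation at 0.048. Aifm2 was at -0.014 with the median of expressed genes set to 0, and at -0.010 with 1 more subtracted, an alternative chosen after seeing the data. Apart from the scale itself, the cause was not tested. Depth limits Slc7a11, Chac1 and Zc3h12b, which were not tested with at least 50 reads.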
